A study of Mus musculus with 6 samples.

Results

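The genes described here are 10 members of the NRF2 antioxidant response and of the defence against ferroptosis, of 24589 genes in the table. They were chosen by name: the regulators Nfe2l2 and Keap1, the target genes Slc7a11, Gclc, Gclm, Txnrd1, Srxn1, Hmox1 and Nqo1, and Gpx4. NRF2, the protein product of Nfe2l2, is the main transcription factor of the response to oxidants and reactive chemicals. The adaptor KEAP1 holds it in the cytosol and delivers it to a ubiquitin ligase; when reactive molecules modify KEAP1, NRF2 escapes degradation, pairs with small MAF proteins and binds antioxidant response elements in DNA. Its classical targets make glutathione, reduce thioredoxin and peroxiredoxins, break down heme and detoxify quinones, and several of them limit ferroptosis, a form of cell death driven by iron and by peroxidation of polyunsaturated lipids that GPX4 opposes with glutathione. T cells raise glutathione and thioredoxin synthesis on activation, and loss of GPX4 is known to kill activated T cells by lipid peroxidation.

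Transcripts were measured by bulk RNA-seq in primary CD8+ T cells (cytotoxic lymphocytes) of wild-type mice, isolated per the methods of the study with magnetic beads from spleen and lymph nodes of C57BL/6 mice and activated with antibodies to CD3 and CD28. The activated cells were given either TVA (trans-vaccenic acid, a fatty acid from ruminant fat with a trans double bond) at 20 µM or its solvent DMSO for 24 h, and there were 3 libraries in each group. The question was which transcripts of this defence system differed after the fatty acid. Per the methods, the study used young adult mice of both sexes, matched for sex and age. The sources used here do not say whether the libraries of a group came from separate mice or cultures, nor which sex gave which library, so p-values measure only the spread between these libraries, which may be technical.

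Levels are given as TPM, a transcript abundance scaled for gene length and to the same total in each library, so levels of different genes can be compared, but sequencing depth is unknown. Of all genes, 10866 reached 1 TPM in 3 libraries or more and were tested with limma, a linear model with moderated variances, on log2(TPM + 1), with adjustment over all of them and a threshold of 0.05. All 10 members passed that filter. Changes are TVA minus DMSO on the log2(TPM + 1) scale, which understates the change of genes with low TPM. The DMSO libraries were less alike than the TVA libraries (correlations across genes of 0.993 to 0.996 against 0.997 to 0.999), and DMSO replicate 2 was closer to each TVA library (0.996) than to DMSO replicate 1 (0.993) or 3 (0.995), so a value without it is also given for each named gene of the pathway whose call it changed. Over all genes the change also correlated with the GC content of the transcripts (Spearman -0.401). The T cell label held, with all 9 CD8 T cell markers in the table above the filter and Cd8a at 274 to 318 TPM. Among other cell types, 9 of 15 myeloid markers were tested and 4 of them were higher with TVA (Lyz2, S100a9, Mpeg1 and Clec7a). The changes of all 9 were above 0 (median 0.285). In 7 the TVA libraries were all above the DMSO libraries, as in 27.3% of all genes tested. The myeloid list summed to 67.4 to 70.6 TPM under DMSO against 89.0 to 94.3 TPM under TVA, while the defining macrophage gene Adgre1 lay at 0.26 to 0.89 TPM. The lists of CD4 T cells (82.4 to 92.2 and 65.5 to 73.0 TPM, mostly Ctla4, which activated CD8 T cells also express), NK cells (23.6 to 26.5 and 34.9 to 35.9 TPM, mostly Eomes) and B cells (11.4 to 15.2 and 11.0 to 11.3 TPM) also differed in sum between DMSO and TVA, and that of red cells (39.0 to 62.3 and 49.2 to 59.5 TPM) overlapped. In bulk RNA, fewer cells of a type and less RNA per cell cannot be told apart.

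Srxn1 was the single member past the threshold, and it rose by 31.5%. Its product, sulfiredoxin, uses ATP to repair peroxiredoxins that hydrogen peroxide has over-oxidised. Its promoter is shown because the results turn on this gene, and the matching stretches of 3 other members are shown beside it because they hold the same letters but belong to genes that did not pass the test. Sequences are RefSeq's for GRCm38.p6, written 5′ to 3′ on the strand of the gene. Windows of 300 bases, 250 before to 50 after an annotated start, were at hand for 8 of the members (13 windows in all). Hmox1 and Gclc are named only. Capitals mark matches to TGACNNNGC, the core of the antioxidant response element, and to TGANTCA, the core bound by AP-1 factors. Both were searched on both strands, only as written, and no match to one overlapped a match to the other. In a match on the opposite strand the antioxidant core begins with GC and ends with GTCA. Srxn1 is given as the 250 bases before its start at chr2:152105274-152105523 (plus strand), with AP-1 matches at -102 to -96 and -45 to -39 from the start, and as a short stretch at chr2:152105542-152105570 with the antioxidant match at 29 to 37. The AP-1 match at -45 to -39 is followed by gc. With these bases it differs from the antioxidant core by 1 letter, and such variants were not searched. Nfe2l2 is given at chr2:75704875-75704913 (minus strand, match at -240 to -232), Gclm at chr3:122245403-122245451 (plus strand, -134 to -126) and Txnrd1 at chr10:82859094-82859142 (plus strand, in 1 of its 3 windows, -92 to -84).
Srxn1 before the start: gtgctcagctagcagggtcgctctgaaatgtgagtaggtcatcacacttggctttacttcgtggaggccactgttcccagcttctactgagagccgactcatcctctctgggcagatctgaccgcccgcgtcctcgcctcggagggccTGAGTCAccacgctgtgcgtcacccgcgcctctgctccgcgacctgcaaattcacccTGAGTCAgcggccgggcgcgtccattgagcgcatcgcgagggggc
Srxn1 after the start: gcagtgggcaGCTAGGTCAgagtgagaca
Nfe2l2: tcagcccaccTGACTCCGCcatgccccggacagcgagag
Gclm: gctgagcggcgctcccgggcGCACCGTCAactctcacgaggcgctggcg
Txnrd1: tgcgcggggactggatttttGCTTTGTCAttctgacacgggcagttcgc

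The antioxidant core was thus found in 4 of the 8 members with a window. It was present in 12.4% of all 32851 promoter windows and, taking every window of a gene, in 17.4% of the 8469 tested genes that had one. The windows of Keap1, Nqo1, Slc7a11 and Gpx4 do not contain these letters. Srxn1 was the member with the AP-1 core, which was present in 7.8% of all windows and 5.8% of those genes. It had 2 copies, and 18 of the 8469 genes (0.21%) had 2 or more. A match describes the letters and does not show that a factor binds there.

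Srxn1 (chr2:152105524-152111376, with no other annotated gene overlapping) stood at 14.42, 14.22 and 14.26 TPM under DMSO (replicates 1, 2 and 3, the order used throughout) against 18.79, 18.72 and 18.89 TPM under TVA. The groups lay far apart relative to their spread, and DMSO replicate 2 was as low as the other DMSO libraries. The means were 14.3 ± 0.106 TPM with DMSO and 18.8 ± 0.0854 TPM with TVA (SD, n = 3 each), with coefficients of variation of 0.740% and 0.4545%. The log2 change was 0.37 (SE 0.039, 95% interval 0.28 to 0.46, limma adjusted p = 0.0040). Among the 10866 genes tested it ranked 46 by p and 103 by size of the rise. The call held under all 14 alternative settings and omissions, with adjusted p from 0.0032 without DMSO replicate 2 to 0.036 without TVA replicate 2. Its transcripts are GC-rich (60.3%, against a median of 50.4% of genes tested), and genes of high GC content tended to be lower with TVA. After correction for GC content the change was 0.52 (SE 0.070, limma adjusted p = 0.0066). The myeloid, NK, CD4 T and B cell marker sums given above separated the same libraries, and their part in this rise was not tested. The rise is visible in the plot of TPM by library, where Srxn1 is the gene whose TVA points all sit above all DMSO points.

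**Figure D1:**
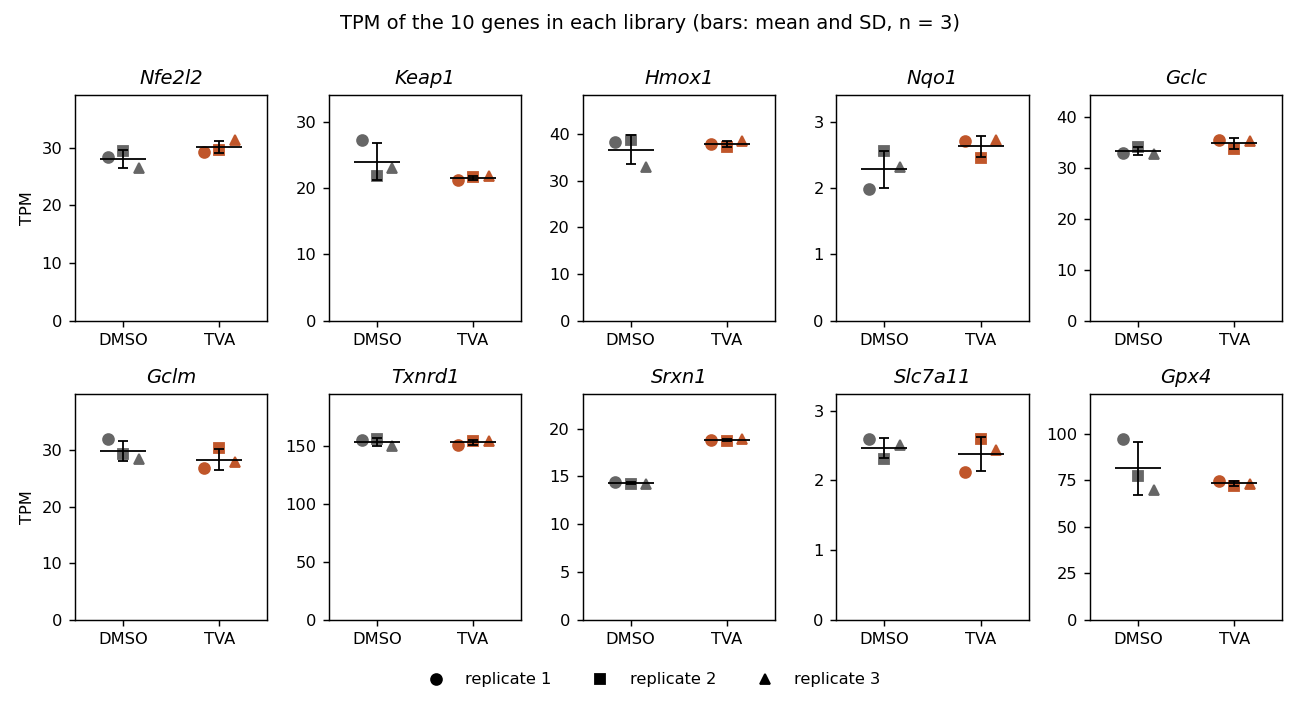
TPM (vertical axes, each from 0) of the 10 genes in each library, with a panel per gene and the marker shape giving the replicate number. Horizontal lines are means and bars are SD (n = 3). Srxn1 stands at 14.22 to 14.42 TPM in the DMSO libraries and 18.72 to 18.89 TPM in the TVA libraries, Keap1 is the other gene whose groups do not overlap, and DMSO replicate 1 is the high point of Keap1 and Gpx4.

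Over the 10 members, 1 was called, higher with TVA. In the same fit 8.51% of all genes tested were called (5.28% higher and 3.23% lower, 925 genes in all). At an unadjusted p under 0.05 there was 1 member, again Srxn1, and 3451 of all genes. The groups did not overlap in 2 of the 10, Srxn1 as higher and Keap1 as lower, where 38.6% of all genes tested had groups that did not overlap (27.3% higher and 11.2% lower). The median change of the members was 0.023, against 0.039 for all genes tested, and 5 of the 10 changes were above 0. The 95% intervals of the other 9 members contained 0. Summed over the members, TPM was 382 to 429.6 with DMSO and 399.5 to 406.1 with TVA.

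The regulators did not pass the threshold. Nfe2l2 (chr2:75675513-75704663) had 28.34, 29.43 and 26.41 TPM under DMSO against 29.29, 29.65 and 31.27 TPM under TVA. The groups overlapped through DMSO replicate 2, which exceeded TVA replicate 1. The log2 change was 0.097 (SE 0.052, 95% interval -0.024 to 0.22, limma adjusted p = 0.24). It was 0.13 without DMSO replicate 2, 0.056 without DMSO replicate 3 and 0.031 after GC correction (adjusted p = 0.12, 0.46 and 0.70). NRF2 is controlled mainly through its degradation, which transcript levels do not measure. Keap1 (chr9:21229730-21239332) had 27.2, 21.78 and 22.96 TPM in the DMSO libraries and 21.13, 21.69 and 21.76 TPM in the TVA libraries. All TVA libraries were below all DMSO libraries, but DMSO replicate 2 was barely above the highest TVA library, and DMSO replicate 1 was the high value. The log2 change of -0.14 (SE 0.077, 95% interval -0.32 to 0.036, limma adjusted p = 0.24) became -0.053 without DMSO replicate 1 and -0.21 without DMSO replicate 2 (adjusted p = 0.42 and 0.078). With 59.1% GC, Keap1 is among the GC-rich members, and its GC-corrected change was -0.035 (adjusted p = 0.54).

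The genes of glutathione synthesis did not pass the threshold either. Slc7a11, which encodes the cystine importer of system xc-, was the member of lowest level (chr3:50364936-50499087). It had 2.59, 2.31 and 2.51 TPM under DMSO against 2.12, 2.59 and 2.43 TPM under TVA, and the groups overlapped (log2 change -0.040, 95% interval -0.22 to 0.14, limma adjusted p = 0.75). Gclc (chr9:77754535-77794489) encodes the catalytic subunit of glutamate-cysteine ligase, the rate-limiting enzyme of glutathione synthesis, and had 33.04, 34.22 and 32.84 TPM in the DMSO libraries and 35.49, 33.69 and 35.41 TPM in the TVA libraries. TVA replicates 1 and 3 were above every DMSO library, while TVA replicate 2 was below DMSO replicate 2 (log2 change 0.061, 95% interval -0.034 to 0.16, adjusted p = 0.33). Gclm (chr3:122245487-122267215), the modifier subunit of the same enzyme, had 31.89, 29.22 and 28.35 TPM under DMSO against 26.76, 30.38 and 27.82 TPM under TVA. Its groups overlapped, and its change had the opposite sign to that of Gclc (log2 change -0.072, 95% interval -0.22 to 0.074, adjusted p = 0.45). A long noncoding RNA gene and a pseudogene overlap Gclm in the annotation, and since the use of strand is not stated its values are uncertain.

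Txnrd1, the cytosolic thioredoxin reductase that regenerates thioredoxin with NADPH, was the most abundant member (chr10:82833951-82897724). It had 154.79, 155.54 and 149.68 TPM in the DMSO libraries and 150.68, 154.44 and 154.13 TPM in the TVA libraries. The ranges of the groups nearly coincided, and the 95% interval of its change was the narrowest among the 10 members, from -0.083 to 0.079 around -0.0023 (limma adjusted p = 0.97). A change of the size of that of Srxn1 lies outside this interval. Other annotated genes, among them the protein-coding Eid3, overlap Txnrd1. Hmox1 (chr8:75093618-75100593), the inducible heme oxygenase that releases iron, biliverdin and carbon monoxide from heme, had 38.23, 38.63 and 32.97 TPM under DMSO against 37.75, 37.2 and 38.49 TPM under TVA. Only DMSO replicate 3 stood apart, as the low value (log2 change 0.049, 95% interval -0.098 to 0.20, adjusted p = 0.62). Nqo1 (chr8:107388225-107403205), a quinone reductase often used as a reporter of NRF2 activity, had 1.99, 2.55 and 2.31 TPM in the DMSO libraries and 2.71, 2.45 and 2.72 TPM in the TVA libraries. TVA replicate 2 lay below DMSO replicate 2, so the groups overlapped (log2 change 0.15, 95% interval -0.047 to 0.34, adjusted p = 0.26). At this low level the added 1 TPM compresses the change, which was 0.20 with a pseudocount of 0.1 (adjusted p = 0.27). The change of Nqo1 was 0.080 without DMSO replicate 1, 0.20 without DMSO replicate 2 and 0.090 after GC correction (adjusted p = 0.50, 0.13 and 0.48).

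Gpx4, the selenoenzyme that reduces lipid hydroperoxides within membranes and is the central brake on ferroptosis, was the second most abundant member (chr10:80047166-80056439). It had 97.12, 77.5 and 69.7 TPM under DMSO against 74.79, 72.1 and 73.17 TPM under TVA. The TVA libraries lay inside the DMSO range, and DMSO replicate 1 was the high value, as for Keap1. The means were 81.4 ± 14.1 and 73.4 ± 1.35 TPM (SD, n = 3), with a log2 change of -0.14 (SE 0.11, 95% interval -0.38 to 0.11, limma adjusted p = 0.40). Without DMSO replicate 1 the change was -0.0030, without DMSO replicate 3 it was -0.24 (adjusted p = 0.16), and after GC correction it was -0.036 (transcript GC 58.8%). The interval of Gpx4 is the widest of the 10, so these libraries say less about Gpx4 than about Txnrd1.

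**Figure D2:**
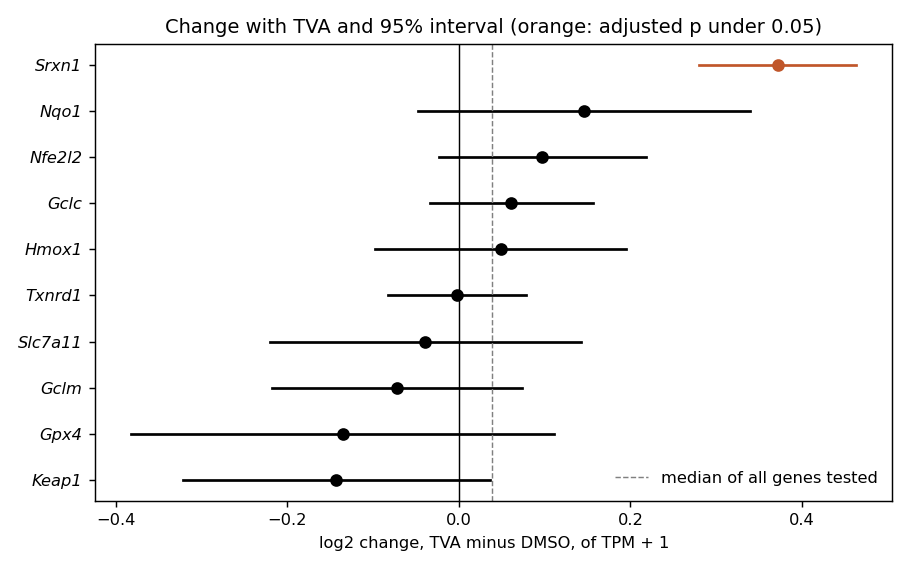
Log2 change of TPM + 1, TVA minus DMSO (horizontal axis), of the 10 genes with 95% intervals from limma, ordered by size. The dashed line is the median of all genes tested (0.039). The interval of Srxn1 runs from 0.28 to 0.46 and lies to the right of 0, and those of the other 9 genes contain 0.

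In mean level over the 6 libraries the order was Txnrd1, Gpx4, Hmox1, Gclc, Gclm, Nfe2l2, Keap1, Srxn1, Nqo1 and Slc7a11. Txnrd1 was above 91.4% of tested genes in mean TPM, Gpx4 above 82.2%, Srxn1 above 42.8%, and Nqo1 and Slc7a11 above 9.5% and 9.4%. Txnrd1, Gpx4 and Srxn1 were separated from their neighbours in this order in both groups, and Gclc from Gclm. Gclm and Nfe2l2 overlapped in both groups, as did Nqo1 and Slc7a11. Hmox1 overlapped Gclc, and Nfe2l2 overlapped Keap1, in the DMSO libraries only.

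**Figure D3:**
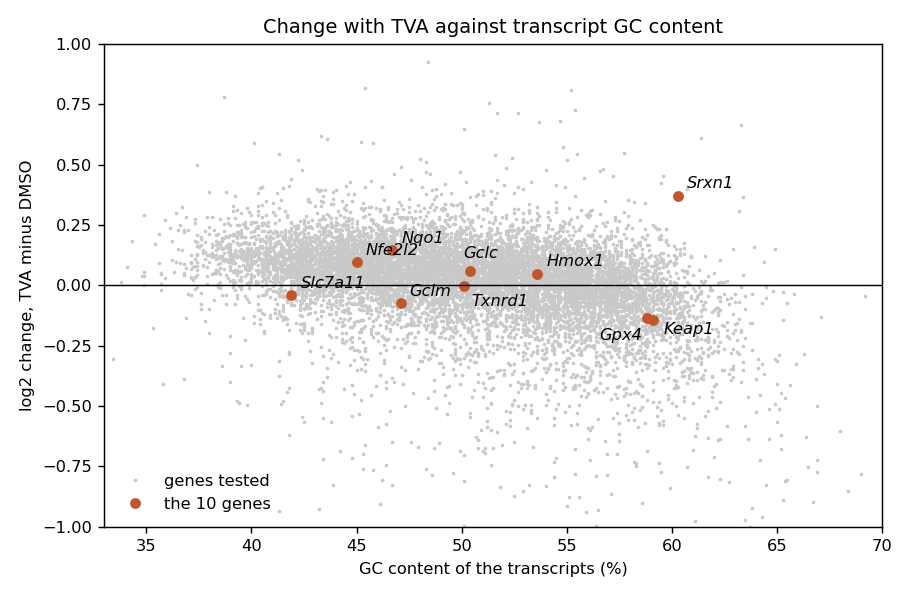
Log2 change of TPM + 1, TVA minus DMSO (vertical axis), against the GC content of the transcripts in percent (horizontal axis), for the genes tested (grey) and the 10 genes (orange). 41 of the tested genes lie outside the plotted range. Changes decline with GC content over all genes (Spearman -0.401). Keap1 and Gpx4 at 59.1% and 58.8% lie near this trend (GC-corrected changes -0.035 and -0.036), and Srxn1 at 60.3% stands above it.

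**Figure D4:**
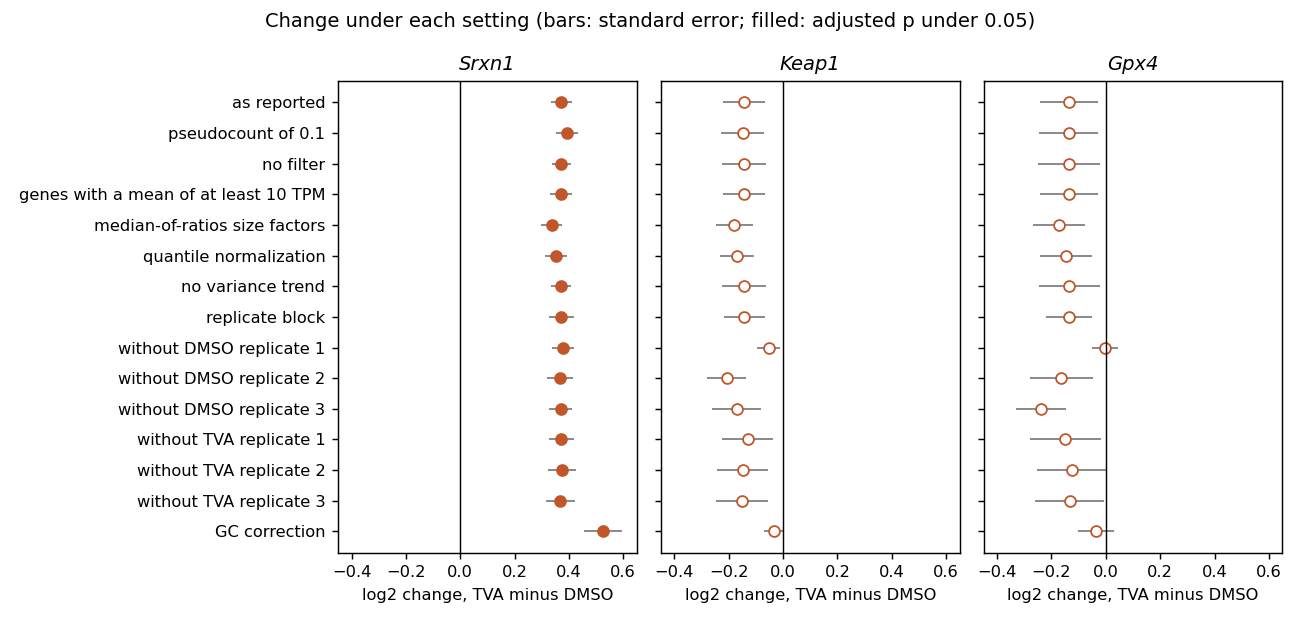
Log2 change, TVA minus DMSO (horizontal axis), of Srxn1, Keap1 and Gpx4 as reported and under each of 14 alternatives (rows). Bars are standard errors and filled points have an adjusted p under 0.05. Srxn1 is filled in every row, while Keap1 and Gpx4 come close to 0 without DMSO replicate 1 (-0.053 and -0.0030) and after GC correction (-0.035 and -0.036).

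The genes whose pattern over the 6 libraries was most like that of Srxn1 were sought among 8934 tested genes whose mean was 5 TPM or more. With 3 libraries against 3, likeness mostly reflects a separation of the groups that is large relative to their spread, and 87 genes had a Pearson correlation over 0.98. The closest was Crebrf (r = 0.9985), with 8.88, 8.83 and 8.86 TPM in the DMSO libraries and 9.8, 9.71 and 9.82 TPM in the TVA libraries. It was followed by Mybl1 (r = 0.9982, 5.73 to 5.83 against 7.02 to 7.1 TPM), a gene of the MYB family of transcription factors. Next was Cpt1a (r = 0.998), the gate of mitochondrial fatty acid oxidation, at 11.79 to 12.49 TPM under DMSO against 36.64 to 37.64 TPM under TVA. In each of the 3 genes the TVA libraries were all above the DMSO libraries. Mybl1 and Cpt1a passed the threshold (log2 change 0.25 and 1.54, limma adjusted p = 0.025 and 3.91e-06), and Crebrf had an adjusted p of 0.099. Mybl1 no longer passed when DMSO replicate 3 (0.061) or 1 of the TVA libraries (0.089 to 0.13) was left out.

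Beyond the 10 members, 196 further genes of NRF2 control, thiol redox chemistry, iron handling, ferroptosis and selenoproteins were in the table, and 171 of them were tested. Of these, 16 were higher (9.36%, against 5.28% of all genes tested) and 7 lower (4.09%, against 3.23%) with TVA, and their median change was 0.039, equal to that of all genes tested at this precision. In 57 the TVA libraries were all above the DMSO libraries (33.3%, against 27.3% of all genes tested) and in 18 all below (10.5%, against 11.2%), which is near the background. Both counts of higher genes include Scd1, which reached the filter only through its TVA libraries. The shares of all genes tested that were called, 5.28% higher and 3.23% lower, are also the background of each list below. Of the 23 calls, those of Maff, Ncf1, Cybb and Scd2 held under every alternative that gave a value. The other 19 were each lost when any of the 3 TVA libraries was left out (limma adjusted p = 0.051 to 0.19), and the count of calls rose to 58 without DMSO replicate 2.

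Among 18 genes of NRF2 control and partners, 2 were lower and none higher (median change -0.022). Maff, a small MAF protein that pairs with NRF2 or with its competitor BACH1, had 11.36, 10.52 and 11.73 TPM in the DMSO libraries and 7.29, 7.33 and 7.41 TPM in the TVA libraries. It fell in every TVA library below every DMSO library (log2 change -0.55, SE 0.054, limma adjusted p = 0.0031). Sqstm1, the autophagy receptor p62 that sequesters KEAP1 and is itself an NRF2 target, had 193.45, 157.12 and 177.68 TPM under DMSO against 130.19, 130.42 and 131.16 TPM under TVA. It also fell without overlap (log2 change -0.42, SE 0.070, adjusted p = 0.017), with adjusted p = 0.059 without DMSO replicate 3. Bach1, a repressor that occupies antioxidant response elements, did not pass (log2 change -0.12, adjusted p = 0.19), nor did the related activator Nfe2l1 (0.030, adjusted p = 0.65).

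Of 28 tested genes of glutathione synthesis and use, 1 was higher and 2 lower (median 0.051). Gstt3, a glutathione S-transferase, rose from 10.77 to 11.76 TPM with DMSO to 14.01 to 14.05 TPM with TVA (log2 change 0.31, limma adjusted p = 0.016). Gsto1, another transferase, fell from 53.23 to 57.71 TPM to 46.69 to 49.2 TPM (-0.20, adjusted p = 0.041), and Cth, which makes cysteine from cystathionine, fell from 140.37 to 154.25 TPM to 125.72 to 131.55 TPM (-0.19, adjusted p = 0.046). The groups of these 3 genes did not overlap. Both falls lost their call without DMSO replicate 3 (adjusted p = 0.086 for Gsto1 and 0.089 for Cth). Slc3a2, the partner chain of the cystine importer, had 167.5 to 197.26 TPM in the DMSO libraries and 164.76 to 169.1 TPM in the TVA libraries (log2 change -0.092, adjusted p = 0.34). Gpx1 and Gstp1, both abundant, had changes of -0.16 and 0.13 (adjusted p = 0.094 and 0.061), which passed without DMSO replicate 2 (-0.21 and 0.15, adjusted p = 0.024 and 0.031).

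The 19 tested thioredoxin and peroxiredoxin genes, the system on which sulfiredoxin acts, included 2 that were higher and 1 that was lower (median 0.031). Prdx4, the peroxiredoxin of the endoplasmic reticulum, had 21.28, 23.94 and 22.55 TPM under DMSO against 29.36, 29.21 and 28.34 TPM under TVA. It rose without overlap (log2 change 0.35, SE 0.051, limma adjusted p = 0.013). Prdx1, the abundant cytosolic peroxiredoxin, had 540.87, 633.38 and 595.6 TPM in the DMSO libraries and 660.34, 667.25 and 677.55 TPM in the TVA libraries. Its groups did not overlap but it did not pass the threshold (log2 change 0.18, 95% interval 0.048 to 0.32, adjusted p = 0.084). The other typical substrates of sulfiredoxin, Prdx2 and Prdx3, had changes of 0.15 and 0.062 (adjusted p = 0.10 and 0.58). Without DMSO replicate 2, Prdx1 and Prdx2 passed as higher (0.24 and 0.20, adjusted p = 0.015 for both). Among the sestrins, Sesn1 rose (0.24, adjusted p = 0.019) and Sesn2, a stress-induced member, fell from 66.5 to 79.33 TPM to 57.58 to 59.2 TPM (-0.27, adjusted p = 0.049). Both were lost without DMSO replicate 3 (adjusted p = 0.054 and 0.069). Txnip, the inhibitor of thioredoxin, had a change of -0.066 (adjusted p = 0.22), and thioredoxin itself (Txn1, 762.46 to 787.9 and 788.12 to 794.99 TPM) of 0.023 (adjusted p = 0.66).

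Of 9 tested genes of superoxide and peroxide handling, 1 was higher and 1 lower (median 0.027), and both encode subunits of the phagocyte NADPH oxidase, which makes superoxide rather than removing it. Ncf1, its cytosolic organizer p47phox, had 33.88, 30.4 and 29.87 TPM under DMSO against 22.02, 21.5 and 19.83 TPM under TVA. Cybb, its catalytic membrane subunit NOX2, had 5.61, 6.22 and 6.35 TPM in the DMSO libraries and 8.84, 8.74 and 8.88 TPM in the TVA libraries. The 2 subunits thus moved in opposite directions (log2 change -0.55 and 0.48, limma adjusted p = 0.0049 and 0.0063), each without overlap. Both genes are also expressed by myeloid cells, whose marker list summed to more TPM with TVA as given above. The part of such cells in the rise of Cybb or the fall of Ncf1 was not tested. Sod1 had a change of 0.027 (adjusted p = 0.74). The 21 tested genes of NADPH supply and NRF2-linked detoxification included no limma call (median 0.082). At an unadjusted p under 0.05 there were 8 of them, and 3451 of all 10866 genes tested. The 3 most abundant genes of this list, Pgd, Taldo1 and Tkt, had changes of 0.082, 0.030 and -0.051. The largest change of the list, named after its values were seen, was that of Pgls, a lactonase of the pentose phosphate route. It had 133.15, 63.93 and 116.4 TPM in the DMSO libraries and 56.68, 54.99 and 57.52 TPM in the TVA libraries. All TVA libraries were lower, and DMSO replicate 2 lay much nearer to them than the other DMSO libraries did. The log2 change was -0.81 (adjusted p = 0.068), and -1.13 without DMSO replicate 2 (adjusted p = 6.591e-05). Its transcripts are GC-rich (65.4%), and the GC-corrected change was -0.27 (adjusted p = 0.034).

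Of 25 tested genes of heme and iron handling, 1 was higher and none lower (median 0.019). Ncoa4, the receptor that sends ferritin to autophagy, had 47.92 to 51.59 TPM under DMSO against 54.94 to 58.08 TPM under TVA (log2 change 0.19, limma adjusted p = 0.044), and this call held in 3 of 14 alternatives. The groups did not overlap, but without DMSO replicate 1 or 3 the adjusted p was 0.057 or 0.10. Fth1, the ferritin heavy chain that stores iron in oxidised form, had 392.59, 246.55 and 362.4 TPM in the DMSO libraries and 260.22, 276.42 and 270.95 TPM in the TVA libraries. DMSO replicates 1 and 3 were above every TVA library and DMSO replicate 2 was below them. The log2 change was -0.28 (adjusted p = 0.24) with all libraries and -0.49 (adjusted p = 0.00081) without DMSO replicate 2, so that library decides the call. Ftl1, the ferritin light chain and a known NRF2 target, had a change of 0.077 (adjusted p = 0.27), which passed without DMSO replicate 1 (0.12, adjusted p = 0.0498) and after GC correction (0.16, adjusted p = 0.034). Tfrc, the transferrin receptor, had 431.22 to 483.22 and 485.94 to 501.69 TPM (0.11, adjusted p = 0.17).

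The list drawn up around ferroptosis suppression other than GPX4 had 5 of 16 tested genes that were higher and none that passed as lower (median 0.041), where 5.28% and 3.23% of all genes tested were called. The 5 include Scd1, which was tested only because of its TVA values, as given below. Not every gene of this list is a suppressor. The 5 called genes encode lipid desaturases and sterol or phospholipid enzymes. Scd2, a stearoyl-CoA desaturase that makes monounsaturated fatty acids, had 61.65, 60.55 and 60.71 TPM under DMSO against 77.66, 80.27 and 78.67 TPM under TVA. It rose far beyond its spread (log2 change 0.37, SE 0.035, limma adjusted p = 0.0026). Scd1, its paralogue, rose from 0.59 to 0.72 TPM to 1.31 to 1.36 TPM (0.48, adjusted p = 0.016). All its DMSO libraries were under the filter of 1 TPM and all its TVA libraries above it. Scd1 was thus tested only through the group where it is high, and its call is partly set by the filter. Reads of the similar genes Scd1 and Scd2 could be split between them in counting, so the value of each is uncertain. Fads2, a desaturase that makes polyunsaturated fatty acids, rose from 3.06 to 4.31 TPM to 5.1 to 6.52 TPM (0.53, adjusted p = 0.037), and Dhcr7, the last enzyme of cholesterol synthesis, which consumes 7-dehydrocholesterol, a sterol that itself shields lipids from peroxidation, rose from 11.6 to 14.6 TPM to 17.05 to 18.48 TPM (0.40, adjusted p = 0.028). Without DMSO replicate 3 the adjusted p was 0.079 for Fads2 and 0.055 for Dhcr7. Mboat1, a lysophospholipid acyltransferase named after its values were seen because it completes the 5 calls, had a change of 0.24 (adjusted p = 0.036, and 0.089 without DMSO replicate 3). Of the genes that did not pass, 3 had all TVA libraries below all DMSO libraries, and they too are named after their values were seen. Gch1, the first enzyme of the synthesis of tetrahydrobiopterin, an antioxidant that suppresses ferroptosis, had 27.48, 16.57 and 21.85 TPM in the DMSO libraries and 13.87, 15.3 and 15.64 TPM in the TVA libraries. Its log2 change was -0.50 (adjusted p = 0.078), and -0.68 without DMSO replicate 2, where it passed (adjusted p = 0.0043). The phospholipase gene Pla2g6 and the aldo-keto reductase gene Akr1b8 had changes of -0.19 and -0.21 (adjusted p = 0.11 and 0.15). At an unadjusted p under 0.05 there were 10 of the 16 genes, and 3451 of all 10866 genes tested. Aifm2, which encodes the coenzyme Q reductase FSP1, had 0.61 to 1.33 TPM and did not reach the filter.

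On the side of lipid peroxide formation, 4 of 18 tested genes were higher and 1 lower, where 5.28% and 3.23% of all genes tested were called. The median change of 0.12 was 0.046 after GC correction. Lpcat3, which places polyunsaturated acyl chains into phospholipids, had 34.43, 33.44 and 32.05 TPM in the DMSO libraries and 42.75, 41.58 and 39.48 TPM in the TVA libraries. It rose without overlap (log2 change 0.30, SE 0.047, limma adjusted p = 0.016). Acsl1, an acyl-CoA synthetase, rose from 5.87 to 6.71 TPM to 8.0 to 8.2 TPM (0.31, adjusted p = 0.024, and 0.061 without DMSO replicate 3). Acsl4, the synthetase most closely tied to ferroptosis, had 63.34, 65.46 and 66.36 TPM under DMSO against 70.39, 73.44 and 73.42 TPM under TVA. Its groups did not overlap, and its adjusted p was 0.051 (log2 change 0.15) and 0.043 without DMSO replicate 2. Alox5, a lipoxygenase, fell from 2.28 to 3.57 TPM to 1.61 to 1.85 TPM (-0.50, adjusted p = 0.047, and 0.054 without DMSO replicate 1). The other calls were Ncoa4, given above, and Elovl5, a fatty acid elongase named after its values were seen (0.17, adjusted p = 0.044, and 0.077 without DMSO replicate 3).

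Of 12 tested genes of selenoprotein synthesis, on which GPX4 and TXNRD1 both depend, none passed the threshold with limma (median 0.0068). At an unadjusted p under 0.05 there was 1 of them, and 3451 of all 10866 genes tested. Of 13 tested genes of other selenoproteins, 3 were higher and none lower (median 0.13, and 0.077 after GC correction), where 5.28% and 3.23% of all genes tested were called. Selenot, a thioredoxin-fold protein of the endoplasmic reticulum that the table lists as Selt, rose from 95.22 to 101.32 TPM to 112.84 to 118.93 TPM (log2 change 0.23, limma adjusted p = 0.022). Selenop, a selenium carrier listed as Sepp1, rose from 18.4 to 18.88 TPM to 20.99 to 21.89 TPM (0.19, adjusted p = 0.033). Selenow, listed as Sepw1, rose from 38.25 to 40.43 TPM to 42.54 to 45.14 TPM (0.17, adjusted p = 0.0495), and its call held in 2 of 14 alternatives. Without DMSO replicate 3 none of these 3 passed (adjusted p = 0.053, 0.063 and 0.11), and Selenow was also lost without DMSO replicate 1 (0.063).

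**Figure D5:**
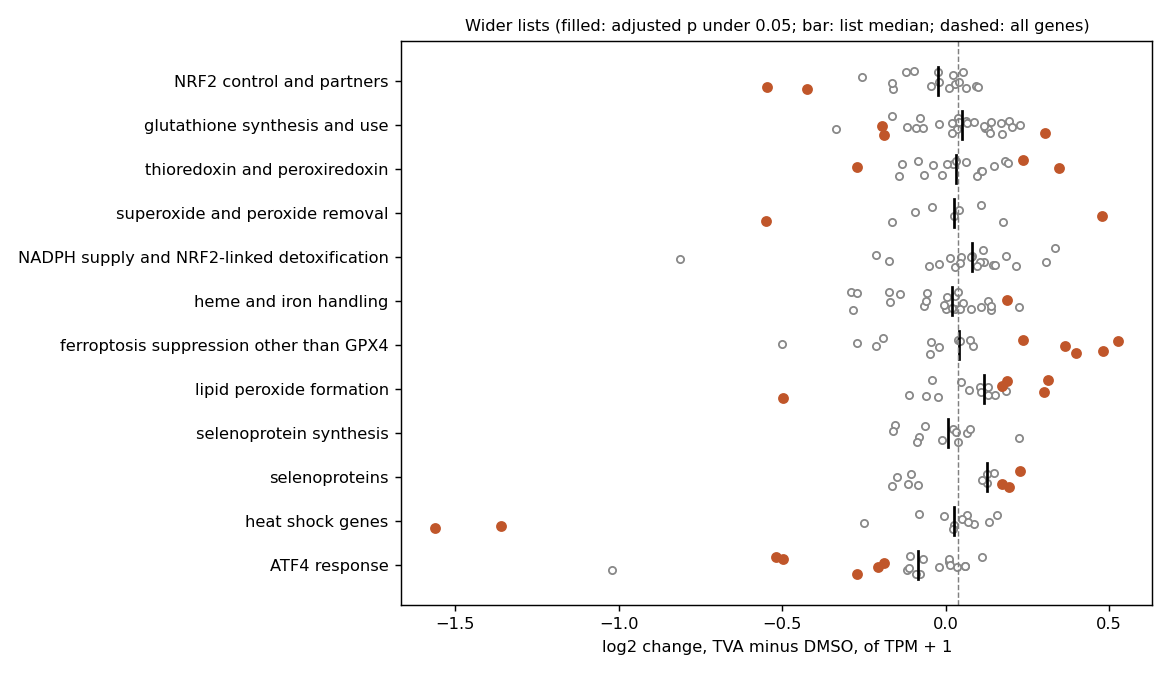
Log2 change of TPM + 1, TVA minus DMSO (horizontal axis), of every tested gene of 12 wider lists (rows, points spread vertically for legibility). Filled points have an adjusted p under 0.05, short black bars are list medians and the dashed line is the median of all genes tested (0.039). Calls lie on both sides of 0 in the lists of glutathione, thioredoxin and peroxiredoxin, superoxide and peroxide, and lipid peroxide formation, while all 5 calls of ferroptosis suppression other than GPX4 lie to the right and all 5 of the ATF4 response to the left.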

How the data were processed

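The authors deposited a single table of TPM per gene symbol for the 6 libraries, with 2 decimals, and it was used as deposited. The labels give a SMARTER mRNA-Seq kit for library preparation. The submitters' processing notes name STAR, RSEM and mm10, while versions and the annotation are not given in the sources used here. TPM keeps no trace of depth, so depth is unknown and no counting interval is given. Groups came from the sample titles. The table held 24589 genes, of which 7840 were listed at 0 in every library and 99.2% matched a RefSeq symbol or synonym of GRCm38.p6, the source of coordinates and promoters. GC content came from GENCODE vM21 transcripts and covered 99.4% of tested genes.

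Genes that reached 1 TPM in 3 libraries or more were tested on log2(TPM + 1) with limma 3.58.1 in R 4.3.3 (variance trend, two-sided, Benjamini-Hochberg adjustment over 10866 genes, threshold 0.05). Intervals are at 95%. A single-gene exact permutation test of 3 against 3 libraries cannot go below p = 0.1 and was not used. The fit was tested on simulated data. The 14 alternatives were a pseudocount of 0.1, no filter (all genes above 0), quantile normalization, median-of-ratios size factors, a mean of 10 TPM or more, no variance trend, the replicate number as a block, each library left out in turn and a GC correction (loess, span 0.5, within each library). Figures were drawn with matplotlib 3.10.9.

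The members and lists were chosen with earlier results of these data known. Named genes were the members and, from each wider list, up to 4 genes past the threshold by absolute change, up to 3 others of the highest mean TPM, and genes whose role a clause needs. For Srxn1 they also included the 3 genes of most similar pattern whose mean was 5 TPM or more. Not all genes that the rule allows are printed. Lists are described by counts and medians, with no set test.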

Additional observations from a re-analysis of the deposited data

How the results depend on the processing

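For the 10 members, 138 values were computed under the 14 alternatives. In 133 of them the direction and the side of the threshold were as reported, and the count of members called was 1 (Srxn1) in each. The 5 with the opposite sign were changes close to 0 when 1 library was left out, where log2 changes ranged from -0.023 to 0.088 for Hmox1, from -0.019 to 0.0090 for Txnrd1 and from -0.084 to 0.017 for Slc7a11. Among other named genes, none of them past the threshold, signs also changed for Nfe2l1 (-0.0076), Txn1 (-0.015), Sod1 (-0.011), Taldo1 (-0.0075) and Hspa8 (-0.013) with median-of-ratios size factors, for Txn1 (-0.027) and Sod1 (-0.034) with quantile normalization, and for Txn1 (-0.030), Sod1 (-0.0017), Prdx3 (-0.0014) and Hspa8 (-0.017) after GC correction. With 1 library left out the ranges were -0.013 to 0.14 for Prdx3, -0.020 to 0.078 for Sod1, -0.0032 to 0.068 for Taldo1 and -0.10 to 0.018 for Tkt. Leaving out 1 library gave 4 to 58 calls among the wider pathway genes (2 to 36 higher, 2 to 22 lower) and 102 to 2242 among all genes (38 to 1223 higher, 64 to 1019 lower). The highest counts were without DMSO replicate 2 and the lowest without a TVA library. Whether the replicate number pairs the libraries is not known. Same-numbered libraries had deviation correlations of 0.157, 0.0348 and -0.0767, which cannot decide it, since differently numbered libraries were not compared. With the replicate number as a block, 9 pathway genes were called (6 higher, 3 lower) and 218 of all genes (93 higher, 125 lower). Srxn1 was still past the threshold (adjusted p = 0.027). With no filter 13 pathway genes (9 higher, 4 lower) and 494 of all genes (270 higher, 224 lower) were called. Without the variance trend 4 pathway genes were lower. With a mean of at least 10 TPM 608 genes were called (178 lower), from fewer genes tested. Of all calls 62.1% were higher as reported, 35.4% with median-of-ratios size factors (270 genes higher), 46.1% with quantile normalization (357 higher) and 51.7% after GC correction (537 lower). The cause of these shifts was not tested. Depth is unknown, so no counting error can be given for low genes such as Nqo1 and Slc7a11.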

Other observations

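Stress responses that share inducers or members with the NRF2 genes were described in the same fit. Of 13 tested heat shock genes 2 were lower and none higher (median log2 change 0.025), where 3.23% and 5.28% of all genes tested were called. The lower genes were Hspa1a and Hspa1b, at 6.71 to 7.84 and 12.06 to 14.2 TPM with TVA, below every DMSO library (14.59 to 26.28 and 27.34 to 53.91 TPM). Reads of this nearly identical pair cannot be assigned with certainty, so each value is uncertain. Their adjusted p (limma, 0.0096 and 0.010) was 0.056 for Hspa1a without TVA replicate 1 and 0.051 to 0.057 for Hspa1b without a TVA library. The abundant chaperone genes Hspa8 and Hsp90ab1 had changes of 0.025 and 0.052 (adjusted p = 0.70 and 0.44).

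Of 20 tested genes of the ATF4 response, which serves amino acid supply and shares Slc3a2, Slc7a5, Chac1, Sesn2 and Cth with the lists above, 5 were lower and none higher (median -0.084, and -0.043 after GC correction). Of all genes tested, 3.23% were called lower and 5.28% higher. Beside Sesn2 and Cth the lower genes of this list were Atf5, Nupr1 and Ddit4. Atf5, a transcription factor of the same family, had 37.51, 26.09 and 34.06 TPM in the DMSO libraries and 22.64, 22.09 and 21.79 TPM in the TVA libraries. Nupr1, a stress-induced chromatin protein, had 7.02, 7.83 and 7.74 TPM under DMSO against 4.67, 5.63 and 4.84 TPM under TVA. The groups of both did not overlap (log2 change -0.52 and -0.50, limma adjusted p = 0.039 and 0.015). Without DMSO replicate 3 the adjusted p was 0.11 for Atf5 and 0.054 for Nupr1, and without a TVA library it rose to 0.11 to 0.15 for Atf5. For Nupr1 the call was lost without TVA replicate 1 or 3 (0.067 and 0.080). Ddit4 fell from 238.66 to 266.72 TPM to 219.81 to 223.57 TPM (-0.21, adjusted p = 0.045), with 0.058 and 0.11 without DMSO replicate 1 and 3 and 0.13 to 0.17 without a TVA library. Atf4 itself had a change of 0.060 (adjusted p = 0.25).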
